A study of Mus musculus with 4 samples.

Results

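The genes described here are the insulin-like growth factor (IGF) binding proteins Igfbp2 to Igfbp7, the receptors Igf1r and Insr, and the receptor substrates Irs1 and Irs2, compared between SOCS3 null and wildtype mouse embryonic stem (ES) cells. Members were all probe sets whose single annotated symbol was one of these 10 genes, which gave 25 of 45037 probe sets once controls were set aside. Total RNA was measured on 4 expression arrays, 2 from wildtype and 2 from SOCS3 null ES cells. The labels name no strain, clone, culture condition or passage, no treatment, and no allele beside the loss of SOCS3. Whether a group's 2 arrays stand for separate cultures is not stated either, so a p-value here sets the genotypes against a spread that may be technical.

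IGFs and insulin bind the receptor tyrosine kinases encoded by Igf1r and Insr, which phosphorylate the substrate proteins IRS1 and IRS2 and so recruit PI3-kinase, the adaptor GRB2 and the phosphatase SHP2. Secreted IGF binding proteins hold IGFs in the extracellular space, where they can keep the ligand from its receptor or deliver it, and proteases that cut them release the ligand. SOCS3, best known as an inhibitor of cytokine receptors that signal through JAK kinases, can also bind the insulin receptor and its substrates.

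Values are deposited intensities on a linear scale. Changes are SOCS3 null minus wildtype, as a difference of mean log2(intensity + 16), with the standard error (SE), and a probe set was called at a limma adjusted p under 0.05. Array medians lay between 15.74 and 15.995, and an intensity near them is called dim. With 4 arrays precision is limited by their number. The targeted gene, Socs3, read 3024 and 1884 in wildtype against 19.3 and 12.9 in null cells on its brightest probe set; which part of it was deleted is not stated. The 10 ES cell marker genes were all above the filter on dim probe sets in both groups, with summed intensities from 80937 to 81130 in wildtype and from 64793 to 68355 in null cells. Of these 10 genes 2 were called lower, Sox2 (-1.01) and Fgf4 (-1.29), and Zfp42 differed by -1.70 without passing (limma adjusted p = 0.0691). Those of 11 primitive and extraembryonic endoderm markers were 759 to 792 and 33895 to 34408, and all 11 were called higher; 3 of them (Gata4, Sox17 and Foxa2) were under the filter floor in wildtype and passed it through the SOCS3 null arrays, so they had to differ. Of 5 blood and endothelial markers tested 3 were called higher, Cdh5 among them in the same way, with sums of 348 to 358 and 494 to 584. Over all genes tested 9.55% were called lower and 13.1% higher. The part of the marker shift in the changes below was not tested. In bulk RNA fewer cells of a type and less RNA per cell cannot be told apart.

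Igfbp2 fell in SOCS3 null cells, Igfbp3 fell on 1 of its 2 probe sets, and no probe set of the other 8 genes was called. Of the 25 probe sets 20 passed the filter and were tested, and 2 were called, both lower, or 10%. The background was 15.9% of all 27022 probe sets tested, 7.3% lower and 8.55% higher. Over both directions the 2 called of 20 are no larger a share than in the array as a whole. The 10% called lower is above the 7.3% lower of all probe sets. By the brightest probe set 2 of 10 member genes were called lower, against 9.55% of all genes tested. These differences in share rest on 2 probe sets and were not tested. The median change of the 20 was 0.04, against -0.02 over all probe sets tested. The arrays of the groups did not overlap, with SOCS3 null lower, for 8 of the 20, where the background was 34.8%, and with SOCS3 null higher for 4 of the 20, where it was 27.2%. None of the 20 passed the filter through 1 group alone: both group means were above the filter floor of 4.72 on the log2 scale for each.

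**Figure D1:**
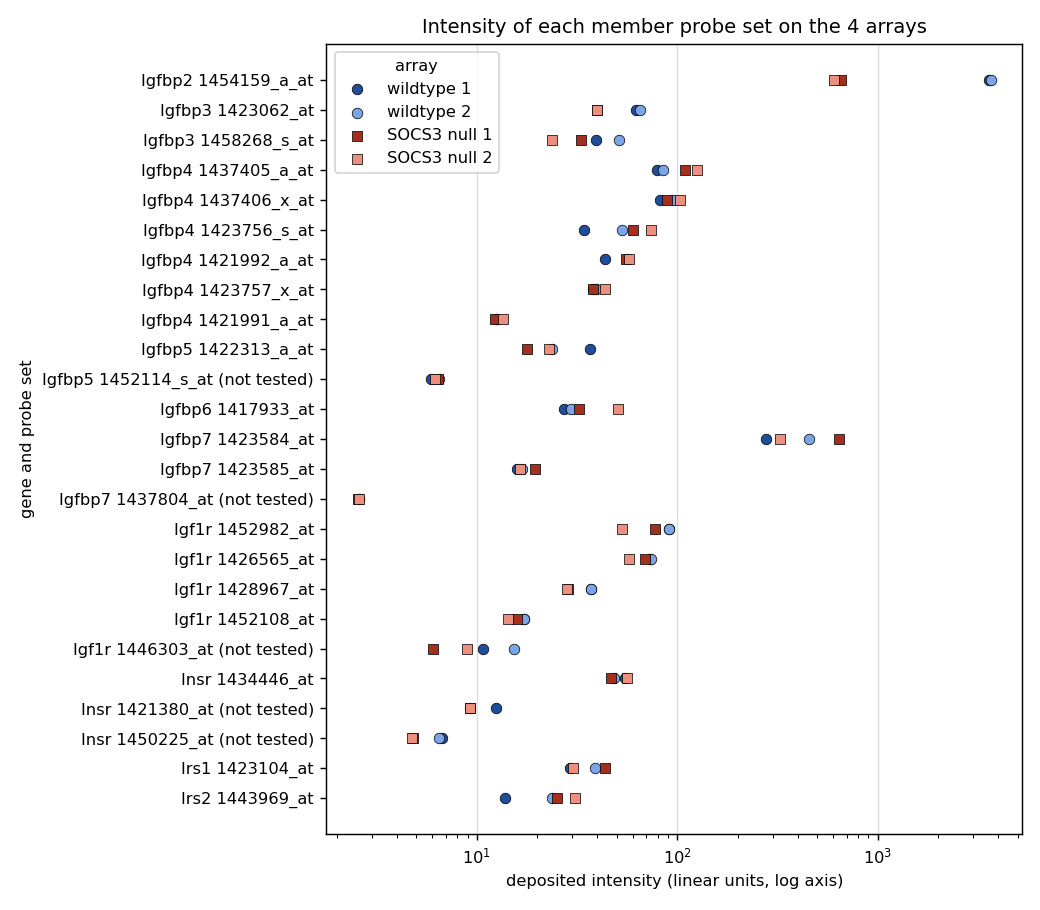
Deposited intensity (log axis) of each of the 25 member probe sets, with 1 point per array, circles for wildtype and squares for SOCS3 null. The Igfbp2 points of the groups lie far apart, at 3588 and 3669 against 655 and 608, while most other probe sets lie under 130 on every array.

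Igfbp2, a binding protein that holds both IGF1 and IGF2, has 1 probe set (1454159_a_at). It read 3588 and 3669 in wildtype against 655 and 608 in null cells. Both SOCS3 null arrays were far below both wildtype arrays, and the arrays of a group lay close together. The means were 3628 ± 57.4 and 632 ± 33.6 (SD, n = 2), so the wildtype mean was 5.74 times the SOCS3 null mean. Its log2 change was -2.49 (SE 0.08, 95% interval -2.72 to -2.27), and limma's adjusted p was 0.0071. Without any 1 array the change was -2.55 to -2.44, but limma then called 0 probe sets of the whole table, with 2 to 7 member probe sets at an unadjusted p under 0.05.

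Igfbp3, the main carrier of IGFs in serum, has 2 probe sets. Its brighter probe set (1423062_at) read 62.2 and 65.2 in wildtype against 39.7 and 39.98 in null cells. Again both SOCS3 null arrays were lower, and their values differed little from each other. The wildtype mean was 1.60 times the SOCS3 null mean, with a log2 change of -0.51 (SE 0.07, 95% interval -0.71 to -0.31, limma adjusted p = 0.0278). The pseudocount set the size of this change, from -0.66 with a pseudocount of 1 to -0.30 with 64, and the call held with both. Its other probe set (1458268_s_at, in a class of probe sets that can match more than 1 transcript) read 39.2 and 51.4 against 33.0 and 23.7. The groups did not overlap there either, and the change was -0.47 (SE 0.17, 95% interval -0.95 to 0.01), which did not pass (limma adjusted p = 0.156).

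**Figure D2:**
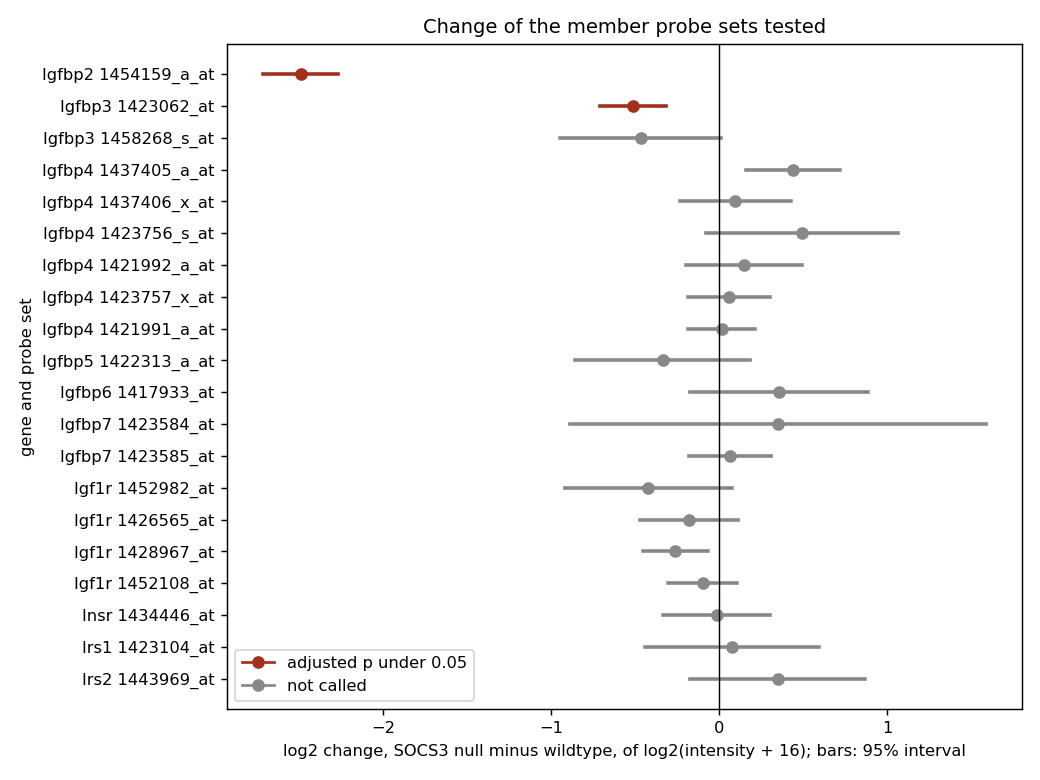
Log2 change, SOCS3 null minus wildtype, of the 20 member probe sets tested, with 95% intervals from the limma fit; red marks an adjusted p under 0.05. Igfbp2 at -2.49 and the first probe set of Igfbp3 at -0.51 are red, and the widest interval is that of Igfbp7, from -0.89 to 1.59.

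The 250 bases upstream of the RefSeq starts of Igfbp2 and Igfbp3 (build GRCm38.p6) are shown because these are the members that changed, and because SOCS3 acts on signals that end in STAT factors. RefSeq entries for 9 of the 10 members were matched, and Igfbp2 has entries for 2 starts. Both strands were searched for the motif of STAT factors, TTCNNNGAA. The TATA box was taken as TATAAA. For the GC box, which SP1 binds, the letters were GGGCGG. An E-box was taken as CACGTG. FOXO factors were given the letters GTAAACA. Capitals mark every match, and matches of different motifs may overlap.
Igfbp2 first start, chr1:72824230-72824479, plus strand: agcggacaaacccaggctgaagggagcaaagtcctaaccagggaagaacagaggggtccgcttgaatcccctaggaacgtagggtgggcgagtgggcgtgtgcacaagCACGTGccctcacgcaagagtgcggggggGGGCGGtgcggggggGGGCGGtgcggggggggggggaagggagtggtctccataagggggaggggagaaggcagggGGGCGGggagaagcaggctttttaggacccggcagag
Igfbp2 second start, chr1:72825137-72825386, plus strand: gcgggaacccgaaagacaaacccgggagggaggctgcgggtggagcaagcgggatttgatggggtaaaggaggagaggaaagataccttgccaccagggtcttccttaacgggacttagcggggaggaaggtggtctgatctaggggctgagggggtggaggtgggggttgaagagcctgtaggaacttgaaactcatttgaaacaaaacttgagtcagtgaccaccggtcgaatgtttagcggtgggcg
Igfbp3, chr11:7213924-7214173, minus strand: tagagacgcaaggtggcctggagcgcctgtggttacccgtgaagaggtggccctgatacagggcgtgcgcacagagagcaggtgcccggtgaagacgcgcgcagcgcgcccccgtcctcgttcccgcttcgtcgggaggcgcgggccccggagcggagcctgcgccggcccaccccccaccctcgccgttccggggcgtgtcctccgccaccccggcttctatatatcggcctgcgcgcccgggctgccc

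The first Igfbp2 window held 3 GC boxes and 1 E-box. The second window and that of Igfbp3 held no match to any of these motifs. Over all 32851 windows of this length 32.7% held the GC box, 6.02% the E-box, 12.4% the TATA box, 7.02% the STAT motif and 3.17% the FOXO motif. In the 10 windows of the 9 members the STAT and FOXO motifs had 0 matches; Igfbp4 and Igfbp6 each had 1 TATA box, and Irs1 and Irs2 each had 1 E-box. GC boxes also lay in the windows of members that were not called, with 4 in Igfbp7, 2 each in Igf1r and Irs1 and 1 in Irs2. A match is only a match of letters, and no match says only that these letters are not in the window. The windows of Igfbp2 were 67.2% and 56.4% G and C and that of Igfbp3 73.2%, those of the other members 49.6% to 77.6%, against a median of 52.4% over all windows.

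Igfbp2 and Igfbp5 are adjacent protein-coding genes on chromosome 1, and Igfbp3 lies beside Igfbp1 on chromosome 11. Igfbp5, a binding protein that also attaches to extracellular matrix, read 36.9 and 23.8 in wildtype against 17.9 and 23.0 in null cells on the probe set tested (1422313_a_at). The second values of the groups were nearly equal, and the change of -0.34 (SE 0.18, 95% interval -0.86 to 0.18) did not pass (limma adjusted p = 0.301). Its other probe set lay between 5.90 and 6.51 on the 4 arrays and was under the filter. The single probe set of Igfbp1, a binding protein that insulin represses in liver, lay between 4.37 and 4.44 and was not tested.

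Igfbp4, which binds IGFs and is cut by the protease pappalysin, had 6 probe sets, all tested, all with a change above 0 and none called. The smallest adjusted p was that of 1437405_a_at, which read 79.7 and 85.0 in wildtype against 110 and 126 in null cells. There both SOCS3 null arrays were higher, and the change was 0.44 (SE 0.10, 95% interval 0.16 to 0.72), with an unadjusted p of 0.0127 and a limma adjusted p of 0.0644. The probe set 1423756_s_at read 34.5 and 52.9 against 60.4 and 74.4, also without overlap, with a change of 0.50 (SE 0.20, limma adjusted p = 0.189). On the other 4 probe sets the groups overlapped, and the changes were 0.02 to 0.15. The smallest was that of 1421991_a_at, which was dim at 12.3 to 13.5. The probe sets of Igfbp4 therefore differed in size of change, and the difference between them was not tested. They share a target, so their common direction is not 6 separate findings.

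Igfbp6, a binding protein with a preference for IGF2, read 27.3 and 29.4 in wildtype against 32.4 and 50.8 in null cells. Both SOCS3 null arrays were higher, but they differed from each other by more than the lower of them differed from wildtype. Its change was 0.36 (SE 0.19, 95% interval -0.17 to 0.89, limma adjusted p = 0.283).

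Igfbp7, a secreted protein that binds IGFs weakly, differed between the arrays of each group. On 1423584_at it read 277 and 454 in wildtype against 640 and 325 in null cells. The groups overlapped, and the change was 0.35 (SE 0.43, limma adjusted p = 0.632) with a 95% interval of -0.89 to 1.59. Without SOCS3 null replicate 1 the change was -0.12, and without replicate 2 of that group it was 0.82. A second probe set (1423585_at) read 15.9 to 19.6 and changed by 0.07, and the third, at 2.56 to 2.59, was under the filter.

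The order of the 4 arrays for Igfbp7 was that of the summed fibroblast and feeder cell markers. Summed over the 10 such genes tested, the marker intensities were 3303 and 5706 in wildtype against 6107 and 3736 in null cells. All 10 markers were higher on wildtype replicate 2 than on replicate 1 and higher on SOCS3 null replicate 1 than on replicate 2, as were 6 of the 20 member probe sets (30%, among them Igfbp2 and a probe set each of Igfbp3 and Igf1r) and 23.7% of all probe sets tested. None of the 10 was called between the genotypes by limma, 1 had an unadjusted p under 0.05, and their median change was 0.28. The full order of the marker sum, from wildtype replicate 1 up through SOCS3 null replicate 2 and wildtype replicate 2 to SOCS3 null replicate 1, was that of 4 of the 10 markers taken singly. The order was taken from the sum of these same markers, so their own counts are no separate finding. It was shared by 3 member probe sets (both tested ones of Igfbp7 and that of Irs1), or 15.0% of the 20, and by 2.12% of all probe sets tested. The 2 of Igfbp7 share a target, and 1423585_at was dim, at 15.9 to 19.6. The part of the markers in the values of Igfbp7 was not tested. Igfbp2 was 1.02 times as high on wildtype replicate 2 as on replicate 1. On SOCS3 null replicate 1 it was 1.08 times as high as on replicate 2. The marker sums differed more within each group, and their part in the values of Igfbp2 was not tested either.

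**Figure D3:**
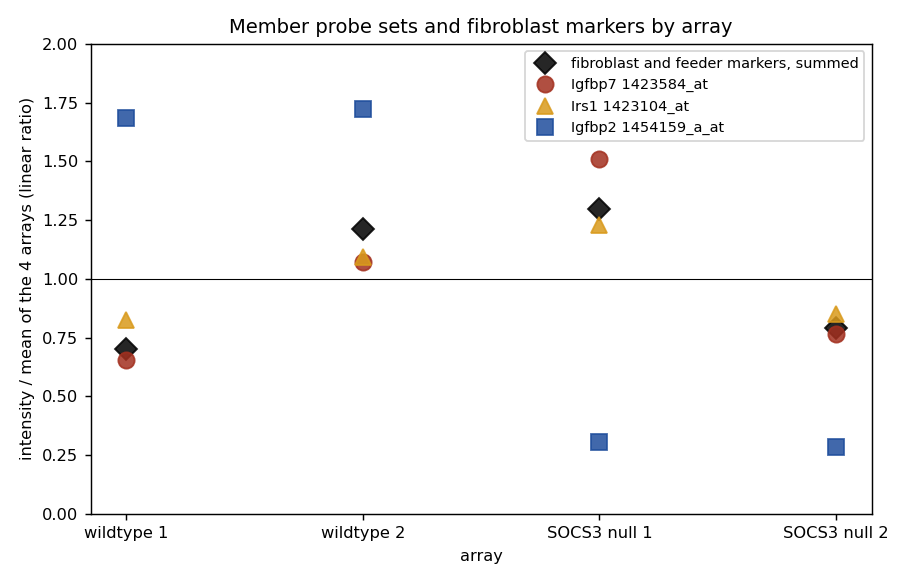
Intensity on each of the 4 arrays divided by the mean of the 4 (linear ratio), for the summed fibroblast and feeder markers and for probe sets of Igfbp7, Irs1 and Igfbp2. Markers, Igfbp7 and Irs1 are high on wildtype 2 and SOCS3 null 1, whereas Igfbp2 separates by genotype.

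Igf1r, the receptor for IGF1 and IGF2, had 5 probe sets, and on all 5 both SOCS3 null arrays were below both wildtype arrays. Over all probe sets tested 34.8% had both SOCS3 null arrays below both wildtype arrays. None of the 4 Igf1r probe sets tested was called. The brightest (1452982_at) read 91.5 on both wildtype arrays against 77.4 and 53.0 in null cells, a change of -0.42 (SE 0.17, 95% interval -0.92 to 0.08, limma adjusted p = 0.197). With an array left out that change lay between -0.64 and -0.20. Next came 1426565_at with 73.5 and 73.7 against 69.1 and 57.5, a change of -0.18 (SE 0.10, limma adjusted p = 0.321). On 1428967_at the values were 37.1 and 37.1 against 28.5 and 28.2, and the change was -0.26 (SE 0.07, 95% interval -0.45 to -0.07), with an unadjusted p of 0.0204 and a limma adjusted p of 0.0848. That probe set was called only without the filter on dim probe sets (limma adjusted p = 0.0333; range over its alternatives 0.0333 to 0.242). The fourth probe set tested read 17.3 and 17.3 against 15.8 and 14.3, and the fifth, under the filter, 10.8 and 15.3 against 6.04 and 8.96. Both of these were dim.

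The wildtype values of Igf1r were equal to the last deposited digit on 3 of its 5 probe sets. Such equal values occurred between the wildtype arrays for 967 of the 27022 probe sets tested, or 3.58%, and between other pairs of arrays for 2.64% to 3.35%. They give a within-group SD of 0 for those probe sets in wildtype cells, so the spread behind these 3 tests comes from the SOCS3 null arrays and from the variance that limma borrows across probe sets. The processing step that gives equal values was not tested. The probe sets of Igf1r share a target, so their common direction is not 5 separate findings.

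Insr, the insulin receptor, read 55.0 and 48.6 in wildtype against 46.5 and 55.8 in null cells on its only probe set tested (1434446_at). The groups overlapped fully, and the change was -0.01 (SE 0.11, limma adjusted p = 0.948). The 95% interval was -0.33 to 0.30 for this 1 probe set, from a spread between arrays that may be technical. Its other probe sets were under the filter and not tested: 1421380_at read 12.4 and 9.30 against 9.30 and 9.23, and 1450225_at read 6.68 and 6.51 against 4.80 and 4.75. On 1450225_at the groups did not overlap, with SOCS3 null lower. Without the filter it did not pass (limma adjusted p = 0.0714).

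The substrates Irs1 and Irs2 had 1 probe set each. Irs1 read 29.3 and 38.8 in wildtype against 43.7 and 30.3 in null cells, with overlapping groups and a change of 0.08 (SE 0.18, 95% interval -0.44 to 0.60, limma adjusted p = 0.816). Irs2 read 13.8, which is dim, and 23.9 against 25.1 and 31.0. Both SOCS3 null arrays were higher for Irs2, though wildtype replicate 2 nearly reached the lower of them, and the change of 0.35 (SE 0.18, 95% interval -0.17 to 0.87) did not pass (limma adjusted p = 0.286). Irs2 lies between Myo16 and Col4a1 on chromosome 8. Col4a1, a type IV collagen gene of the endoderm markers, was called higher with a gene-level change of 5.22. It was picked out after its value was seen, and a link with Irs2 was not tested.

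The rest of the pathway was described with 8 lists that held 80 genes, each gene represented by its brightest probe set. Of the 64 genes tested 12 were higher and 2 lower, or 21.9%, against a background of 22.7% of 12732 genes, 13.1% higher and 9.55% lower. The median change was 0.11, against -0.00 over all genes. Taken as a whole, the lists were called about as often as all genes tested. They were chosen with earlier results of these data known, and no list was tested as a set.

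Of 4 ligand and clearance genes tested 1 was higher, or 25%, against 13.1% over all genes tested. Igf1, the ligand of Igf1r, read 18.6 and 15.5 in wildtype, both dim, against 62.1 and 114 in null cells. The change was 1.61 (SE 0.28, limma adjusted p = 0.031 over genes), and its other 3 probe sets were called higher too. Of these 4 probe sets 2 had wildtype means below the filter floor and passed it through the SOCS3 null arrays, so they had to differ. The call of Igf1 was lost without the filter (limma adjusted p = 0.0967) and when 64 was the pseudocount (0.0637); the range over its alternatives was 0.00639 to 0.232. Igf2, the growth factor of the embryo, read 166 and 254 against 388 and 1276. Both SOCS3 null arrays were higher, but they lay so far apart that the change of 1.70 (SE 0.64) did not pass (limma adjusted p = 0.143). A second Igf2 probe set stayed between 16.7 and 17.1 on all arrays, which is dim, so it does not show an unchanged Igf2. Igf2r, which clears IGF2 into lysosomes, changed by 0.42 (SE 0.11, limma adjusted p = 0.0713 over genes) on its brightest probe set, from 413 ± 36.1 to 556 ± 39.3 (SD, n = 2). Its dimmer probe set was called higher over all probe sets (0.65, limma adjusted p = 0.029).

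Among 4 genes tested that act on binding proteins, 2 were higher, or 50%, against 13.1% over all genes tested. Htra1, a secreted serine protease with an IGFBP-type domain, rose by 3.77 (SE 0.12, limma adjusted p = 0.00441 over genes), from 239 ± 33.8 to 3437 ± 101 (SD, n = 2). Stc2, an inhibitor of pappalysins, rose by 0.94 on its brightest probe set (limma adjusted p = 0.0115), from 47.9 ± 1.42 to 107 ± 9.88 (SD, n = 2). Its other probe sets changed by 0.41 and -0.31 and were not called. Without either SOCS3 null array the brightest probe set of Stc2 was another one, with changes of 0.31 and 0.52, while the first probe set then changed by 0.86 and 1.03. As the mean of its probe sets Stc2 changed by 0.35 and did not pass (limma adjusted p = 0.117). Pappa, the protease that cuts Igfbp4, differed by 0.05 and did not pass.

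Genes for proteins that share the N-terminal domain of the binding proteins were called higher in 3 of 7 cases, or 42.9%, against 13.1% over all genes tested. These were Htra1, already counted above, the matricellular gene Ccn1 with 2.19, and Crim1 with 1.20, a transmembrane protein that binds BMPs. Crim1 lost its call with a pseudocount of 64 (limma adjusted p = 0.064), without the filter (0.114) and as the mean of its probe sets (0.0578), and it did not pass in the fit over probe sets (0.0532); the range over its alternatives was 0.0105 to 0.265. Ccn2, close to Ccn1 in function, differed by 0.82 and did not pass. Of the 7 genes 0 were called lower.

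At the receptor, 2 of 11 adaptors and inhibitors tested were higher and 1 lower, or 27.3%, against 22.7% called over all genes tested. Shc1, an adaptor that links receptors to Ras, rose by 1.02 (SE 0.15, limma adjusted p = 0.0222), and Dok1, which dampens Ras signalling, by 0.80 (SE 0.11, limma adjusted p = 0.0211). Ptprf, a receptor phosphatase that can act on the insulin receptor, fell by 0.60 on the log2 scale, from 1117 ± 85.5 to 733 ± 55.7 (SD, n = 2; limma adjusted p = 0.0335). Without the filter the adjusted p of these 3 genes was 0.0657, 0.053 and 0.0702, and that of Shc1 was 0.0735 as the mean of its probe sets. Grb10, a growth inhibitor that binds both receptors, differed by -0.32 and did not pass.

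In the PI3-kinase and AKT arm 5 of 13 genes tested were higher and 0 lower, or 38.5%, against 13.1% higher over all genes tested. This list too was chosen with earlier results of these data known, so its share above the background is no test of the arm. Of the 13 genes 2 were called without the filter and 3 when 64 was the pseudocount. Akt1, the kinase downstream of PI3-kinase, read 191 and 256 in wildtype against 779 and 664 in null cells on its brightest probe set, a change of 1.63 (SE 0.18, limma adjusted p = 0.013). Its other 3 probe sets were not called, with changes of 1.40, 0.23 and -0.02, and the mean of the probe sets changed by 0.81. Inpp5d, a lipid phosphatase that opposes PI3-kinase, rose by 1.34 (SE 0.20, limma adjusted p = 0.0223), and its other tested probe set was not called. Smaller rises were those of the PI3-kinase regulatory subunits Pik3r3 (0.58) and Pik3r1 (0.52) and of the AKT phosphatase Phlpp2 (0.50), with limma adjusted p of 0.0421, 0.0465 and 0.026. Pik3r1 passed in 4 of 15 alternatives, with a limma adjusted p of 0.0342 to 0.24, and its other 3 probe sets tested were not called. Pik3r3 lost its call without the filter (0.0901) and when 64 was the pseudocount (0.064), and Inpp5d without the filter (0.0725).

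**Figure D4:**
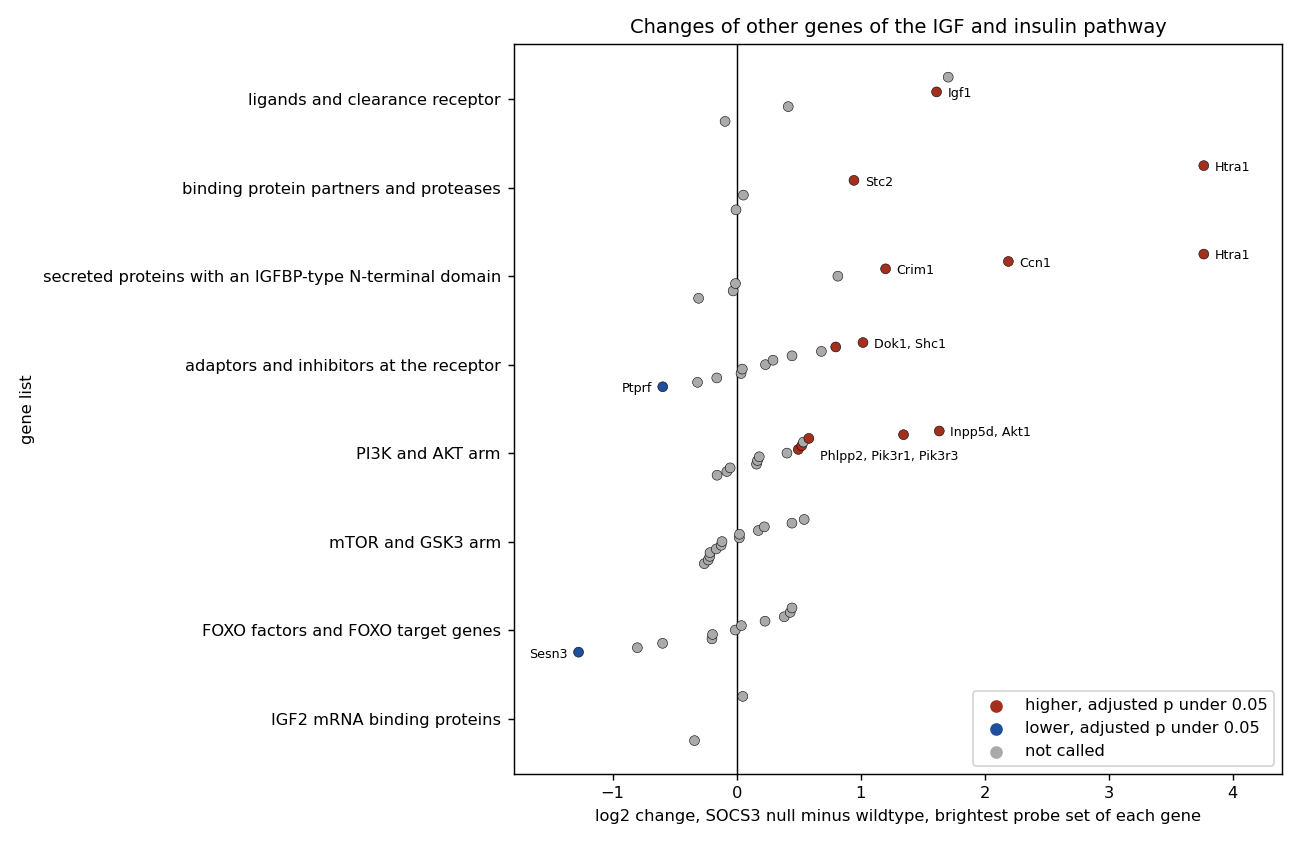
Log2 change, SOCS3 null minus wildtype, of the brightest probe set of each gene tested in the 8 pathway lists, 1 point per gene; red marks genes called higher, blue genes called lower. Htra1 at 3.77 stands in 2 lists, and the mTOR and GSK3 arm holds no coloured point.

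Downstream, 0 of 13 genes of the mTOR and GSK3 arm passed the limma test, with 2 at an unadjusted p under 0.05. Over all 12732 genes tested 22.7% passed, and 4905 had an unadjusted p under 0.05. Rheb, the small GTPase that activates mTOR, was called lower when 64 was the pseudocount (limma adjusted p = 0.0417) and without the filter (0.0414). Of 2 genes for proteins that bind IGF2 mRNA 0 passed, with 0 at an unadjusted p under 0.05. Of 11 FOXO factors and FOXO target genes tested 1 was lower and 0 higher by the brightest probe set, with 4 at an unadjusted p under 0.05. The share called lower was 9.09%, against 9.55% over all genes tested. Sesn3, a stress-induced inhibitor of mTOR signalling, fell by 1.28 on the log2 scale (SE 0.13, limma adjusted p = 0.0119), from 207 ± 24.5 to 76.0 ± 9.44 (SD, n = 2). In this list 2 genes were called with a pseudocount of 1, and 3 as the mean of probe sets. Another probe set of Foxo1 was called higher over all probe sets. The median changes of the 3 lists were -0.12, -0.15 and -0.01. The lists and the members share the same arrays, so none of these counts is an independent check on another.

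**Figure D5:**
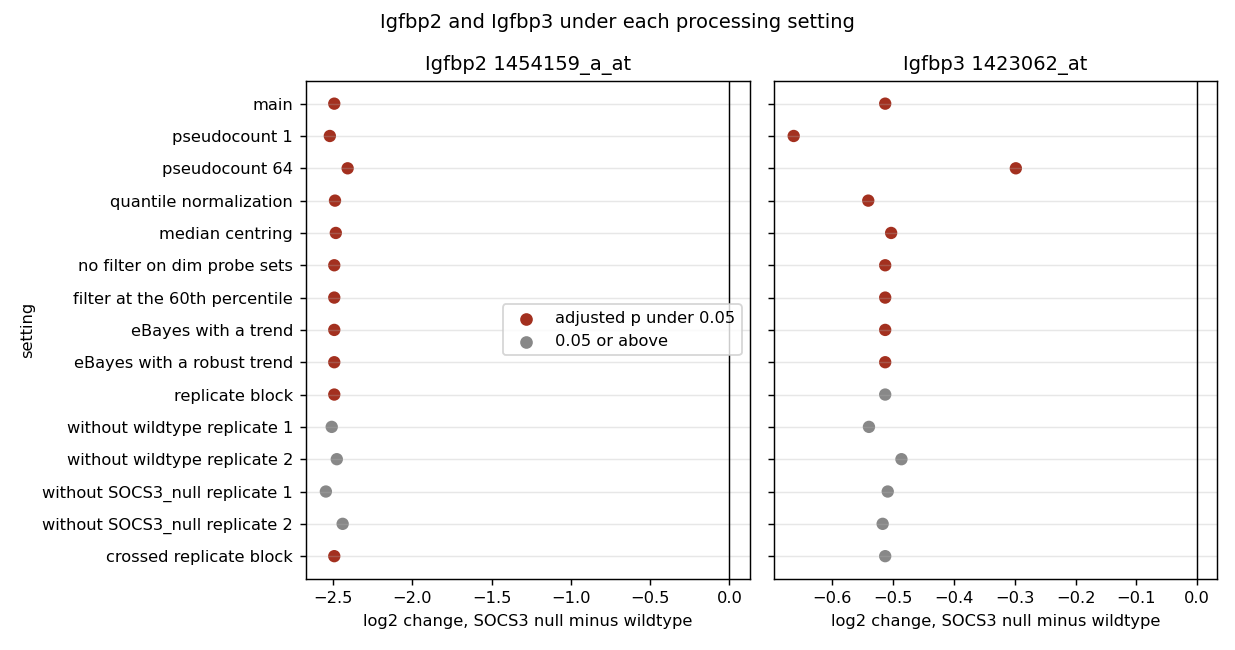
Log2 change of the called probe sets of Igfbp2 (left) and Igfbp3 (right) under the main setting and each alternative, red where the adjusted p was under 0.05. Igfbp2 stays between -2.55 and -2.41, and Igfbp3 between -0.66 and -0.30, with both grey when any 1 array is left out.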

How the data were processed

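The deposited values are array intensity values on a linear scale, 1 column per array; how the authors summarised and normalized them is not given in the sources used here. Array medians differed little, so the values were not normalized again. Without the 64 controls 45037 probe sets remained, of which 34945 had 1 symbol in the platform annotation. log2(intensity + 16) was fitted with limma 3.58.1 in R 4.3.3 (lmFit and eBayes, genotype as the only term, two-sided, Benjamini-Hochberg over all rows) for the 27022 probe sets at or above the 40th percentile of mean log2, and again for 12732 genes by their brightest probe set. Members and lists were chosen with earlier results of these data known. Named genes are the members, Socs3, Igf1, Igf2, Igf2r, Igfbp1 and the called genes of each list; others that did not pass (Pappa, Ccn2, Grb10, Rheb), Col4a1 and the markers named were chosen after their values were seen. On 10 simulated data sets of 27022 probe sets for SOCS3 null against wildtype, 71.5% of changes of 1 and 98.0% of changes of 2 on the log2 scale were found, and 5.17% of calls were false. Their noise was drawn from the variances that limma fitted to these arrays, so a false share near 0.05 was built in. Each set held 200 changed probe sets, against 4283 called in the data. The shares are therefore not the power or error rate of the real arrays. Promoter windows came from RefSeq (GRCm38.p6). Figures were drawn with matplotlib 3.10.9. Alternatives were 2 other pseudocounts, 2 normalizations, 2 filters, 2 variance priors, a replicate block, averaged probe sets per gene, and each array left out.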

Additional observations from a re-analysis of the deposited data

How the results depend on the processing

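Igfbp2 kept its direction in all 14 alternatives and its call in the 10 that kept all 4 arrays; Igfbp3 (1423062_at) kept its direction in 14 and its call in 8. With any 1 array left out limma called 0 member probe sets, 0 member genes, 0 of all probe sets, 0 of all genes and 0 pathway genes (0 to 0 each), and 5699 to 8535 of all probe sets had an unadjusted p under 0.05; 1 residual degree of freedom remained. Without the filter 1733 of all probe sets, 1631 genes and 7 pathway genes were called, against 4283, 2888 and 14. With the replicate number as a block 1 member probe set, 1 member gene, 1993 probe sets and 1914 genes were called, and the limma adjusted p of Igfbp3 was 0.0801, of Phlpp2 0.0725, of Pik3r3 0.0878 and of Pik3r1 0.0904. The labels do not say that the numbers pair arrays, and the deviations of same-numbered arrays correlated at -0.12 across probe sets. The crossed pairing, chosen after seeing the data, called 1 member probe set and 3845 of all probe sets.

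With an array left out, probe sets that were not called changed sign. Without wildtype replicate 1 Insr 1434446_at was at 0.053 and Irs1 at -0.061. Without SOCS3 null replicate 1 Igfbp7 1423584_at was at -0.12, Igfbp7 1423585_at at -0.0027, Insr at 0.086 and Irs1 at -0.11, and without SOCS3 null replicate 2 Igfbp4 1423757_x_at and 1421991_a_at were at -0.014 and -0.014. The ranges over the arrays left out were -0.12 to 0.82 and -0.0027 to 0.14 for these Igfbp7 probe sets, -0.11 to 0.26 for Irs1, -0.12 to 0.086 for Insr, and -0.014 to 0.13 and -0.014 to 0.046 for the Igfbp4 probe sets. The cause was not tested. Other changes kept their sign but moved by over 1.5 times. Examples among the members were Igfbp5 1422313_a_at (-0.54 to -0.13), Igfbp6 (0.13 to 0.59) and Irs2 (0.14 to 0.56). Further ones were Igf1r 1452982_at (-0.64 to -0.20), Igfbp3 1458268_s_at (-0.62 to -0.32) and Igfbp4 1423756_s_at (0.27 to 0.72). At gene level Igf2 (0.87 to 2.54) and the called genes Igf1 (1.24 to 1.98), Crim1 (0.89 to 1.51) and Pik3r1 (0.41 to 0.63) moved likewise. These examples are not a full list. Of the 25 member probe sets 5 were under the filter on low signal and have no test.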
